A study of Oryza sativa Japonica Group with 12 samples.

Results

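Seedlings of the rice line raf-b2/3 were compared with wild-type (WT) seedlings after both had spent 6 hours in 800 mM mannitol. The comparison covered 21309 loci of the 29358 in the deposited table, those with at least 1 FPKM (fragments per unit of gene length and library depth) in at least 3 of the 6 libraries concerned. The rule reads the level of a locus and not the difference between genotypes. Of these loci 19678 reached that level in all 6 libraries, 184 reached it through raf-b2/3 libraries alone and 108 through WT libraries alone. A locus of the last 2 kinds had to differ in order to be included.

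Messenger RNA of whole seedlings, 5 days old, was sequenced as paired reads of 150 bases. The groups were raf-b2/3 with mannitol, WT with mannitol, raf-b2/3 without mannitol and WT without mannitol, with 3 libraries each and 37536545 to 39793707 fragments per library. WT is given in the protocols as WT/NIP. In 1 label raf-b2/3 is a B2/3 RAF knockdown and in the protocols it is a mutant, and no locus, allele or number of lines is named, so the targeted genes could not be used to check the labels. Whether the libraries of a group come from separate batches of seedlings is not stated, and p-values then measure only how far these libraries spread, which may be technical. The material was bulk tissue, in which fewer cells of a type and less RNA per cell cannot be told apart.

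Mannitol draws water out of plant cells. In plants, loss of water activates protein kinases of the SnRK2 family, and Raf-like kinases of the B2, B3 and B4 subgroups are known, chiefly from Arabidopsis, to phosphorylate and activate them. When the hormone abscisic acid (ABA) binds its PYL receptors, clade A PP2C phosphatases release the SnRK2 kinases, which phosphorylate bZIP factors that switch on late embryogenesis abundant (LEA) genes and other genes of the drying response. Many clade A PP2C genes are themselves induced by ABA.

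The library raf-b2/3 mannitol 3 stood apart from the other 2 of its group. Its root mean square distance from the WT mannitol mean was 0.356 on the log2 scale, against 0.444 for raf-b2/3 mannitol 1 and 0.435 for raf-b2/3 mannitol 2. Its Pearson's r across loci, which are not independent, was 0.972 to 0.979 with the WT mannitol libraries, where raf-b2/3 mannitol 1 and 2 had 0.959 to 0.969. On the second principal component, which held 12.6% of the variance, raf-b2/3 mannitol 3 scored 15.2, the others of its group 34.0 and 31.3, and the WT mannitol libraries -27.7, -29.2 and -20.6. The first component held 71.9% and separated the mannitol libraries from those without mannitol.

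Loci that are nearly silent in 1 line showed this library from another side. Without mannitol, 6 loci with at least 2 FPKM in every WT library were at 3% or less of the WT level in every raf-b2/3 library. The rule was set after the data were seen, and its result is read as a description. Of the 6, 5 were the last listed loci of chromosome 1, LOC_Os01g74610 to LOC_Os01g74670. Under mannitol LOC_Os01g74650 had 5, 9 and 2488 fragments in raf-b2/3 libraries 1, 2 and 3, against 16380, 17178 and 17155 in the WT libraries. LOC_Os01g74610 had 10, 11 and 707 fragments in raf-b2/3 and 5112, 5289 and 5109 in WT. The third raf-b2/3 library thus held these RNAs at an intermediate level. In it the 5 loci stood at 13.9%, 13.8%, 14.9%, 15.1% and 25.7% of the WT mannitol mean, and in the other 2 raf-b2/3 libraries at no more than 0.2%. The value of 25.7% rests on 9 fragments of LOC_Os01g74670. The neighbour LOC_Os01g74600 did not follow them, with 1.19, 1.29 and 1.76 FPKM in raf-b2/3 and 0.563, 1.06 and 0.788 FPKM in WT.

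The sixth locus, LOC_Os06g11240, went the other way. It had 4, 1 and 0 fragments in raf-b2/3 under mannitol and 748, 708 and 895 in WT. A count of 0 allows up to 3 fragments, and covers counting error only. Conversely, 9 loci were at 3% or less of the raf-b2/3 level in every WT library without mannitol, with at least 2 FPKM in every raf-b2/3 library there. These 9 loci were all present in raf-b2/3 mannitol 3, at 47.9% to 127.7% of the mean of raf-b2/3 mannitol 1 and 2. What the intermediate levels at the end of chromosome 1 come from was not tested. Results below include that library. Values without it are given for the genes at which it stood farthest apart. Where leaving it out ended the call of a gene given with values, this is stated.

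**Figure D1:**
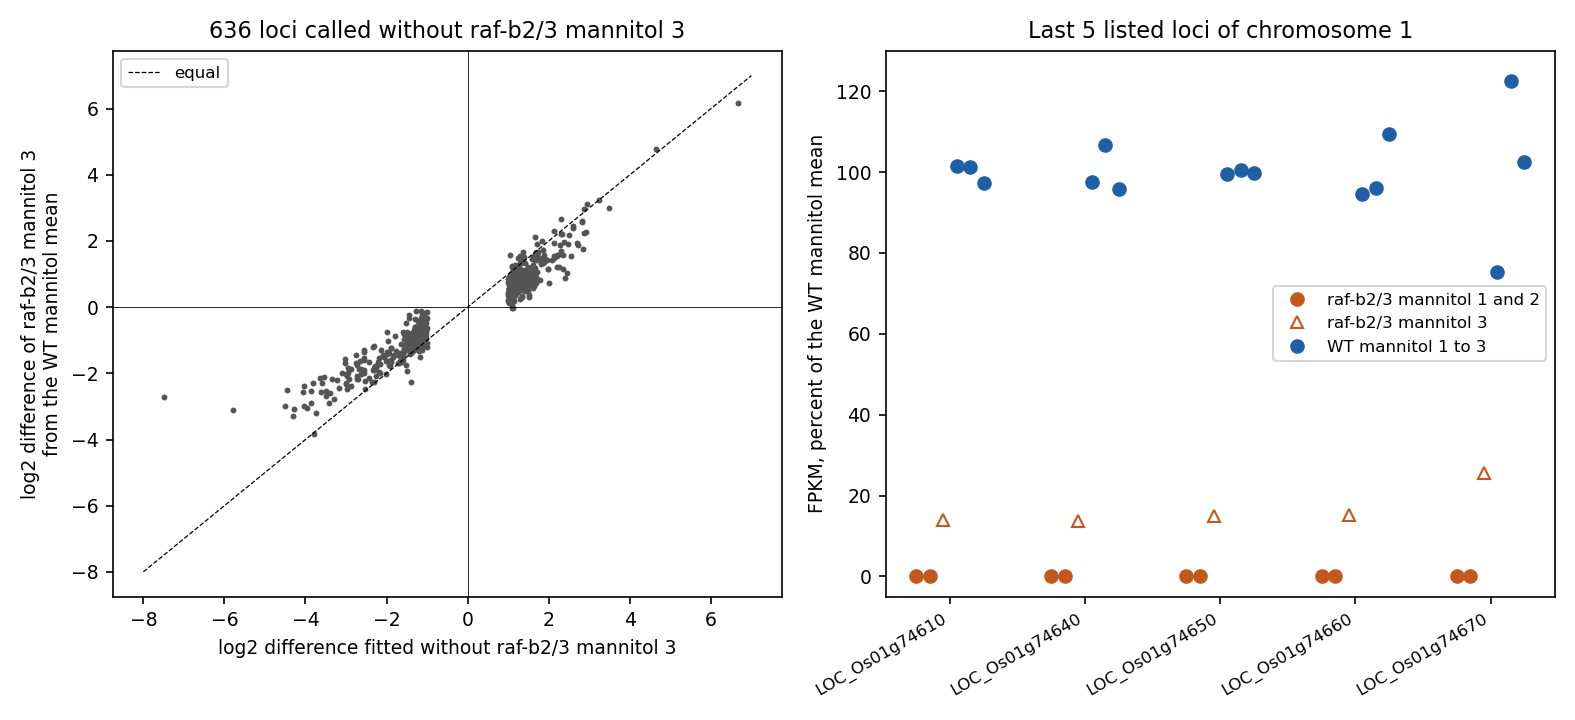
Left, each point is 1 of the 636 loci called without raf-b2/3 mannitol 3. The horizontal axis is the log2 difference between raf-b2/3 mannitol 1 and 2 and WT mannitol, and the vertical axis is the log2 difference of raf-b2/3 mannitol 3 from the WT mannitol mean. Right, FPKM of the last 5 listed loci of chromosome 1 as a percent of the WT mannitol mean, 1 marker per library. Most points on the left lie between the dashed line of equality and 0, and on the right raf-b2/3 mannitol 3 stands at 13.8% to 25.7% while raf-b2/3 mannitol 1 and 2 lie at no more than 0.2%.

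Genotypes differed under mannitol at a small share of loci, in both directions. By limma-trend on log2(FPKM + 1), with Benjamini-Hochberg adjustment over all 21309 loci, 253 loci were called higher in raf-b2/3 (1.19%) and 251 lower (1.18%), 2.37% in all, where called means an adjusted p under 0.05 and a log2 difference of at least 1 in size. Large differences lay mostly on the lower side, with 28 loci higher and 76 lower by at least 2. At the adjusted p alone 1870 loci were higher (8.78%) and 1681 lower (7.89%), 16.7% in all, and these shares are the background for the gene lists below. The median log2 difference over all loci was -0.013. Among the called loci were 52 of the 184 that passed the filter through raf-b2/3 libraries alone and 35 of the 108 that passed through WT libraries alone, while 167 higher and 170 lower calls were at loci that reached 1 FPKM in all 6 libraries. Of the 504 called loci, 503 had no overlap between the 3 raf-b2/3 and the 3 WT values, while over all loci 16.8% lay above WT and 17.6% below it without overlap.

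Leaving out raf-b2/3 mannitol 3 raised the counts to 353 higher (1.66%) and 283 lower (1.33%), and 489 of the 504 called loci were among them. At the adjusted p alone they were then 1909 higher (8.96%) and 1572 lower (7.38%). Counts at the adjusted p alone fell most when WT mannitol 1, WT mannitol 2 or raf-b2/3 mannitol 2 was left out. Without WT mannitol 1 they were 1106 higher and 1053 lower, and without WT mannitol 2 they were 1196 and 1079. Leaving out raf-b2/3 mannitol 2 gave 1259 and 1138. When each library was judged on loci called without it, raf-b2/3 mannitol 3 showed a median of 0.70 of the fitted difference (636 loci), with the same direction at 99.7% of them. Libraries raf-b2/3 mannitol 1 and 2 showed 1.08 and 1.09 of it, and WT mannitol 1, 2 and 3 showed 1.02, 1.02 and 0.87. The third raf-b2/3 library therefore differed from WT at the same loci by less, at 0.66 of the fitted size for higher and 0.74 for lower loci.

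**Figure D2:**
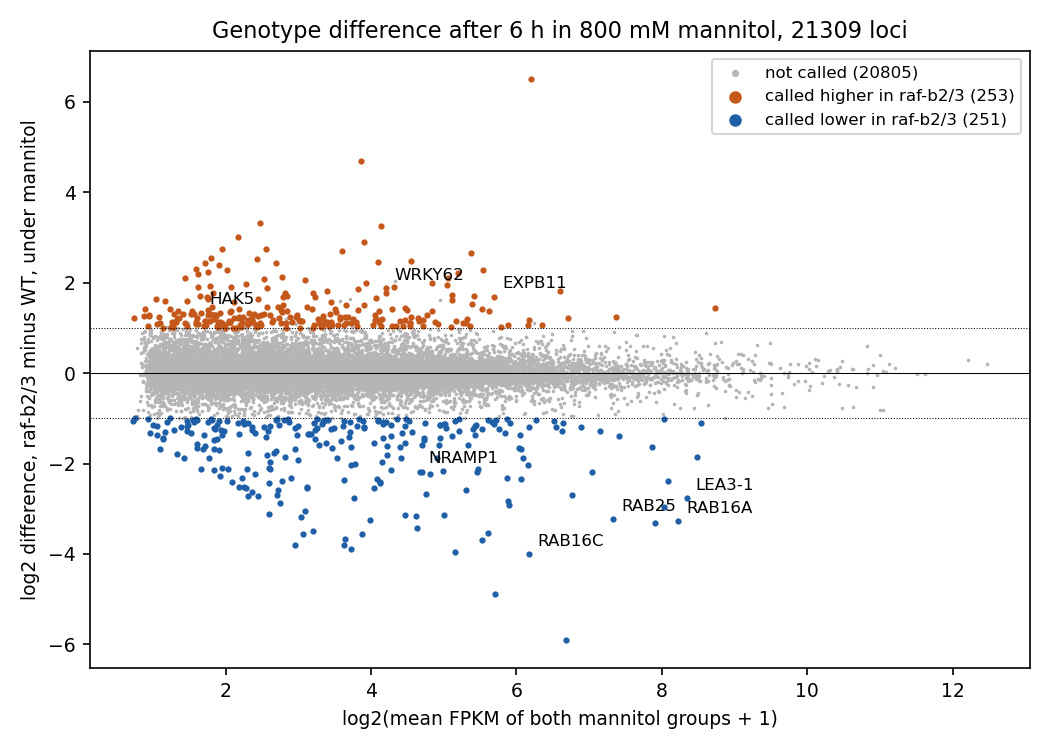
Log2 difference of raf-b2/3 minus WT under mannitol (vertical) against the log2 of the mean FPKM of both mannitol groups plus 1 (horizontal), with 1 point per locus for 21309 loci. The 253 loci called higher and the 251 called lower lie beyond the dotted lines at 1 and -1, and LEA genes such as RAB16C and RAB16A stand among the strongly expressed loci on the lower side.

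LEA and dehydrin genes, whose hydrophilic products accumulate in drying tissue, had the lowest median of the lists with at least 4 tested members. All 9 tested members with a checked name were lower in raf-b2/3 at the adjusted p, against 7.89% of all loci, with a median log2 difference of -2.77 against -0.013 over all loci. The dehydrin gene RAB16C (LOC_Os11g26760) had 3.72, 6.16 and 15.7 FPKM in raf-b2/3 and 130, 160 and 110 FPKM in WT. The groups were far apart, and the highest raf-b2/3 value was that of library 3. The log2 difference was -4.01 (SE 0.43, limma adjusted p 9.0e-05), and without raf-b2/3 mannitol 3 it was -4.52.

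Its neighbours on chromosome 11 were lower too. RAB16A (LOC_Os11g26790) had 34.4, 51.8 and 89.7 FPKM in raf-b2/3 and 555, 614 and 446 FPKM in WT. RAB16B (LOC_Os11g26780) had 3.81, 4.38 and 9.58 FPKM in raf-b2/3 and 81.8, 107 and 64.2 FPKM in WT. RAB16D (LOC_Os11g26750) had 22.6, 22.2 and 42.2 FPKM in raf-b2/3 and 179, 229 and 151 FPKM in WT. In each of these genes library 3 was the highest of raf-b2/3 and the lowest of WT. The log2 differences were -3.27 (SE 0.39, adjusted p 2.0e-04), -3.68 (SE 0.45, adjusted p 2.0e-04) and -2.68 (SE 0.26, adjusted p 3.9e-05). Without raf-b2/3 mannitol 3 those of RAB16A and RAB16B were -3.63 and -4.04. The RAB16 genes are close copies, and reads could have been shared between them.

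LEA genes elsewhere in the genome were lower as well. RAB25 (LOC_Os01g50910), a dehydrin gene, had 21.4, 27.6 and 43.6 FPKM in raf-b2/3 and 316, 303 and 245 FPKM in WT. LEA3-1 (LOC_Os05g46480), of the group 3 LEA proteins, had 60.6, 79.3 and 112 FPKM in raf-b2/3 and 562, 669 and 466 FPKM in WT. LEA3-2 (LOC_Os03g20680) had 4.60, 9.55 and 14.8 FPKM in raf-b2/3 and 47.4, 43.9 and 42.6 FPKM in WT. None of the 3 overlapped between genotypes. Their log2 differences were -3.23 (SE 0.30, adjusted p 3.4e-05), -2.77 (SE 0.48, adjusted p 0.002) and -2.22 (SE 0.27, adjusted p 2.0e-04). EMP1 (LOC_Os05g28210), which encodes an Em-type seed LEA protein, was expressed at 0.424, 0.474 and 1.80 FPKM in raf-b2/3 and at 8.14, 9.65 and 5.36 FPKM in WT, a log2 difference of -2.24 (SE 0.27, adjusted p 1.8e-04).

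Another 2 entries of the list had no symbol in the reference and are given by locus number. LOC_Os01g12580 had 1.12, 1.40 and 2.24 FPKM in raf-b2/3 and 15, 15.1 and 11.2 FPKM in WT (log2 -2.52, SE 0.17, adjusted p 2.9e-06). LOC_Os06g23350 had 0.0950, 0.184 and 0.795 FPKM in raf-b2/3 and 7.79, 7.96 and 4.49 FPKM in WT. Its log2 difference was -2.51 (SE 0.28, adjusted p 1.1e-04), -4.17 with a pseudocount of 0.1 and -4.67 by limma-voom. It passed the filter through WT libraries alone, so it had to differ to be tested, and its adjusted p without the filter was 2.4e-04. Both loci were lower in every raf-b2/3 library than in any WT library, and both passed the interaction (adjusted p 3.5e-04 and 0.018). Without mannitol LOC_Os01g12580 had means of 0.171 FPKM in raf-b2/3 and 0.173 FPKM in WT. LOC_Os06g23350 had 0.0308 and 0.545 FPKM there. At such levels log2(FPKM + 1) leaves little room for a difference, so their interaction largely restates the difference under mannitol.

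The dehydrin gene LIP9 (LOC_Os02g44870) was the exception in size. It had 183, 164 and 194 FPKM in raf-b2/3 and 344, 339 and 329 FPKM in WT, a log2 difference of -0.90 (SE 0.24, adjusted p 0.023). Its call ended, with adjusted p of 0.053 to 0.080, when raf-b2/3 mannitol 1, raf-b2/3 mannitol 2 or any 1 of the WT mannitol libraries was left out. Without mannitol, RAB25 alone of the 9 genes with a checked name was past the adjusted p (log2 -1.63, adjusted p 0.019). The median of these 9 genes was nonetheless -0.89 without mannitol, against 0.013 over all loci. The genotype difference depended on mannitol, by the interaction of genotype and mannitol, for RAB16D (-3.27, adjusted p 8.3e-04), LEA3-1 (-3.11, adjusted p 0.029), RAB16C (-2.89, adjusted p 0.024) and EMP1 (-2.02, adjusted p 0.014).

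**Figure D3:**
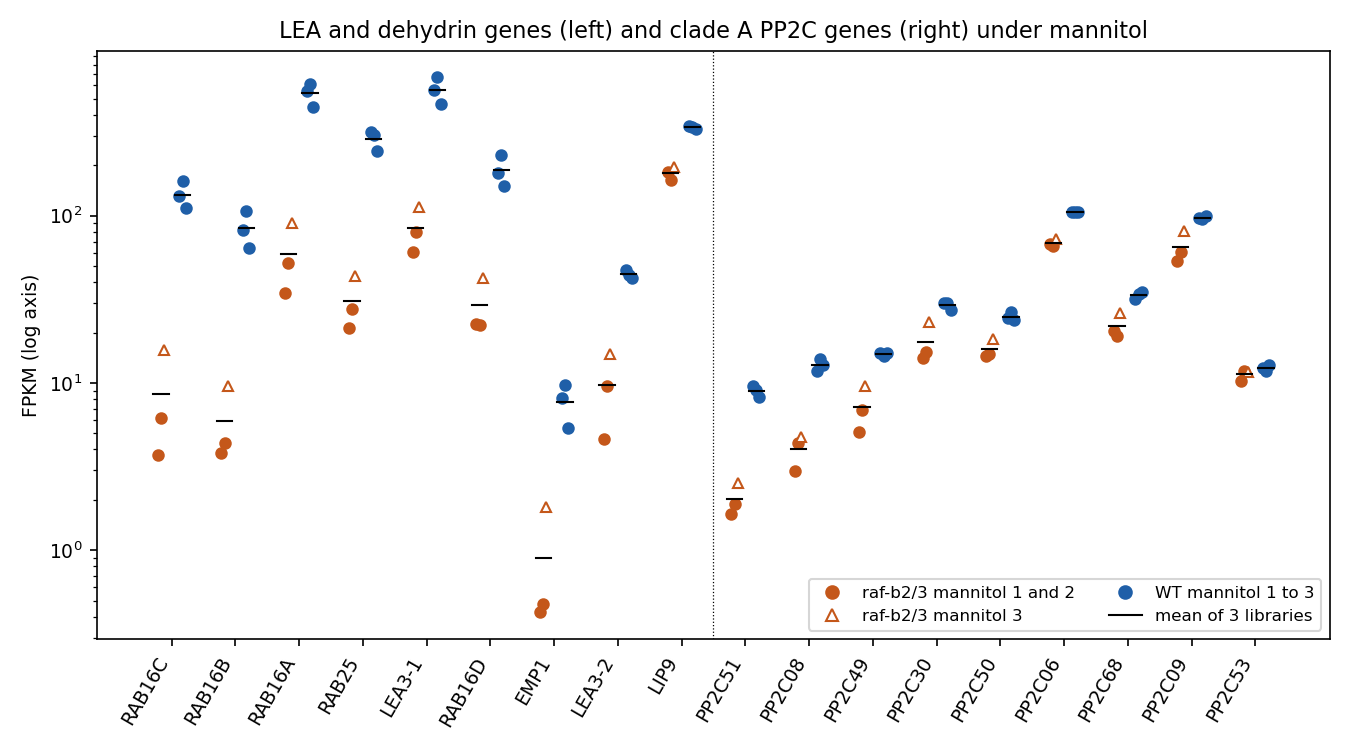
FPKM on a log axis of the 9 LEA and dehydrin genes and the 9 clade A PP2C genes under mannitol, with raf-b2/3 left of WT for each gene, 1 marker per library and a bar at the mean of 3 libraries. The triangle of raf-b2/3 mannitol 3 lies above the other raf-b2/3 markers for all genes shown except PP2C53, and only PP2C53 has overlapping groups.

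Clade A PP2C genes, whose products hold the SnRK2 kinases back, were lower to a lesser degree. Of 9 tested, 6 were lower and 0 higher at the adjusted p, with a median log2 difference of -0.62. PP2C51 (LOC_Os05g49730) had 1.64, 1.89 and 2.51 FPKM in raf-b2/3 and 9.53, 9.04 and 8.22 FPKM in WT (log2 -1.73, SE 0.12, adjusted p 4.2e-06). PP2C08 (LOC_Os01g46760) had 2.98, 4.39 and 4.75 FPKM in raf-b2/3 and 11.7, 13.8 and 12.8 FPKM in WT (log2 -1.47, SE 0.14, adjusted p 3.3e-05). Both had a wide gap between the genotypes, and both passed the interaction (adjusted p 0.001 and 0.032). PP2C49 (LOC_Os05g38290) had 5.08, 6.85 and 9.61 FPKM in raf-b2/3 and 15.1, 14.6 and 15 FPKM in WT (log2 -1.0, SE 0.17, adjusted p 0.002).

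The strongly expressed members changed by smaller factors. PP2C06 (LOC_Os01g40094) had 67.4, 65.8 and 72.5 FPKM in raf-b2/3 and 105 FPKM in each WT library, a log2 difference of -0.61 (SE 0.08, adjusted p 2.5e-04). PP2C09 (LOC_Os01g62760) had 53.8, 60.7 and 80.6 FPKM in raf-b2/3 and 96.1, 95.4 and 100 FPKM in WT, a log2 difference of -0.59 (SE 0.12, adjusted p 0.006), and stood at -0.60 without mannitol too (adjusted p 0.029). PP2C50 (LOC_Os05g46040) had 14.5, 14.9 and 18.3 FPKM in raf-b2/3 and 24.3, 26.7 and 23.7 FPKM in WT, a log2 difference of -0.62 (SE 0.11, adjusted p 0.002). In all 3, library 3 was again the raf-b2/3 library nearest to WT. PP2C30 (LOC_Os03g16170) and PP2C68 (LOC_Os09g15670) had log2 differences of -0.73 (SE 0.37, adjusted p 0.213) and -0.61 (SE 0.35, adjusted p 0.279) and passed when only the 6 mannitol libraries were fitted (adjusted p 0.015 and 0.007), and PP2C30 also without WT control 3 (0.044). PP2C53 (LOC_Os05g51510) was at -0.12 (SE 0.07, adjusted p 0.313).

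Genes of the ABA pathway above and beside the PP2Cs differed in both directions. Of 10 SnRK2 kinase genes 1 was higher and 3 lower. SAPK3 (LOC_Os10g41490) had 42.4, 40 and 40.7 FPKM in raf-b2/3 and 73.7, 64.8 and 66.6 FPKM in WT (log2 -0.72, SE 0.13, adjusted p 0.002). SAPK10 (LOC_Os03g41460) was lower by log2 -0.64 (adjusted p 0.006) and SAPK2 (LOC_Os07g42940) higher by 0.37 (adjusted p 0.004). The list median was -0.04. The only ABA receptor gene with a checked name, PYL11 (LOC_Os05g12260), was higher by log2 0.28 (adjusted p 0.009). Locus numbers alone identified 3 more receptor entries that were tested, of which 1 was higher and 0 lower. LOC_Os03g18600 was the higher one, by log2 1.14 (adjusted p 1.2e-04), and by 0.84 without mannitol (adjusted p 0.006). Of the bZIP factors that bind ABA response elements, BZIP23 (LOC_Os02g52780) had 20.2, 19.5 and 26.9 FPKM in raf-b2/3 and 32.9, 34.1 and 34.5 FPKM in WT. TRAB1 (LOC_Os08g36790) had 18.3, 17.7 and 21.5 FPKM in raf-b2/3 and 28.4, 26.6 and 27.9 FPKM in WT. Both were lower, by log2 -0.60 (adjusted p 0.003) and -0.51 (adjusted p 9.8e-04). The bZIP gene BZIP52 (LOC_Os06g45140) was higher, with 60, 48.4 and 51.4 FPKM in raf-b2/3 and 25.3, 25.0 and 31.4 FPKM in WT (log2 0.94, adjusted p 0.001). A further 6 entries of the bZIP list, without a symbol in the reference, were tested by locus number, and 5 of them were lower and 0 higher.

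Of the enzymes that make and break down ABA, 2 of the 6 tested with a checked name were lower, and both act in breakdown. ABA8OX2 (LOC_Os08g36860) had 6.42, 4.68 and 7.19 FPKM in raf-b2/3 and 17.4, 18.3 and 17.6 FPKM in WT (log2 -1.42, SE 0.13, adjusted p 3.3e-05). ABA8OX3 (LOC_Os09g28390) had 0.771, 0.533 and 1.56 FPKM in raf-b2/3 and 3.25, 2.92 and 2.64 FPKM in WT (log2 -1.04, adjusted p 0.004, and log2 -1.64 with a pseudocount of 0.1 and -1.75 by limma-voom). The related ABA8OX1 (LOC_Os02g47470) was at -0.22 (adjusted p 0.298). Of these 3 genes the groups overlapped only for ABA8OX1. A further 3 entries of the list, without a symbol in the reference, were tested by locus number. Of them LOC_Os07g05940 was lower, with 0.645, 0.685 and 1.06 FPKM in raf-b2/3 and 2.96, 3.03 and 2.31 FPKM in WT (log2 -1.07, adjusted p 0.029), a call that ended without raf-b2/3 mannitol 1 or 2 or WT mannitol 1 or 2 (up to 0.094), with a pseudocount of 0.1 and by limma-voom.

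The Raf-like kinase list held 1 gene with a checked name, EDR1-LIKE (LOC_Os06g50920), which had 4.68, 4.38 and 4.16 FPKM in raf-b2/3 and 4.32, 3.48 and 4.19 FPKM in WT (log2 0.12, SE 0.13, adjusted p 0.604). The other 4 entries had no symbol in the reference and are given by locus number. LOC_Os02g50970 had 10.6, 9.26 and 10.6 FPKM in raf-b2/3 and 21.9, 21.7 and 22.7 FPKM in WT, a log2 difference of -1.06 (SE 0.07, adjusted p 3.2e-06), and it stood at -1.16 without mannitol (adjusted p 3.5e-06). All 3 raf-b2/3 libraries were low at this locus, library 3 included. LOC_Os03g06410 was at 0.29 (adjusted p 0.043), and its call ended without any 1 of the mannitol libraries except raf-b2/3 mannitol 3 (adjusted p 0.084 to 0.137), without any 1 of raf-b2/3 control 1 and 3 and WT control 1 and 3 (0.052 to 0.057), with only the 6 mannitol libraries (0.084) and without the filter on low values (0.051). LOC_Os02g32610 and LOC_Os09g39320 were at 0.15 and -0.01 (adjusted p 0.332 and 0.963).

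Homeodomain leucine zipper factors linked to drought stood out among the stress transcription factors. Of 9 homeodomain and zinc finger stress factors 3 were lower and 1 higher. HOX24 (LOC_Os02g43330) had 4.25, 4.38 and 11.2 FPKM in raf-b2/3 and 31.8, 29.2 and 29.2 FPKM in WT (log2 -2.15, SE 0.37, adjusted p 0.002, and log2 -2.55 without raf-b2/3 mannitol 3), a call that ended with a pseudocount of 0.1 (adjusted p 0.067). HOX22 (LOC_Os04g45810) had 11.8, 8.85 and 20.1 FPKM in raf-b2/3 and 37.0, 39.0 and 37.0 FPKM in WT (log2 -1.48, SE 0.25, adjusted p 0.002, and log2 -1.78 without raf-b2/3 mannitol 3). HOX6 (LOC_Os09g35910) was lower by log2 -0.94 (adjusted p 1.3e-04). Of the named genes past the adjusted p, those with the widest gap between raf-b2/3 mannitol 3 and the mean of the other 2 raf-b2/3 mannitol libraries, chosen for that gap, were RAB16C at 1.53 on the log2 scale, HOX24 at 1.20, RAB16A at 1.07, RAB16B at 1.06 and LEA3-2 at 1.04, all with library 3 nearer to WT. Without that library LEA3-2 was at -2.57.

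Most tested WRKY factors, a family known for roles in defence, were higher in raf-b2/3. The 4 with a checked name were all higher (median log2 1.26), and 3 were without raf-b2/3 mannitol 3. Of the 14 entries without a symbol in the reference, tested by locus number, 9 were higher and 1 lower (median log2 0.65). The lower one, LOC_Os08g38990, had 6.76, 4.87 and 6.62 FPKM in raf-b2/3 and 13.7, 12.4 and 12.8 FPKM in WT (log2 -0.99, adjusted p 5.8e-04). WRKY62 (LOC_Os09g25070) had 30.6, 38.2 and 16.5 FPKM in raf-b2/3 and 6.28, 6.08 and 7.57 FPKM in WT (log2 1.87, SE 0.29, adjusted p 0.001, and log2 2.21 without raf-b2/3 mannitol 3). WRKY76 (LOC_Os09g25060), its neighbour on the chromosome, had 7.80, 9.99 and 5.28 FPKM in raf-b2/3 and 1.77, 1.75 and 2.89 FPKM in WT (log2 1.45, SE 0.26, adjusted p 0.003). In both, library 3 was the lowest of raf-b2/3. WRKY24 (LOC_Os01g61080) was higher by log2 1.07 (adjusted p 0.003), and so was BHLH148 (LOC_Os03g53020), a basic helix-loop-helix factor, with 20.4, 25.4 and 17.7 FPKM in raf-b2/3 and 9.42, 10.4 and 8.74 FPKM in WT (log2 1.07, adjusted p 0.002).

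JAZ repressors, which silence jasmonate responses and are themselves induced by jasmonate, were higher for 7 of 12 tested and lower for 0 (median log2 0.56). TIFY9 (LOC_Os04g32480) had 4.39, 4.44 and 3.48 FPKM in raf-b2/3 and 0.937, 1.62 and 0.817 FPKM in WT (log2 1.28, SE 0.20, adjusted p 0.001). TIFY11E (LOC_Os10g25230) had 4.93, 4.24 and 3.93 FPKM in raf-b2/3 and 1.07, 1.65 and 2.07 FPKM in WT (log2 1.06, adjusted p 0.005), a call that ended with a pseudocount of 0.1 (adjusted p 0.103). TIFY11B (LOC_Os03g08330), TIFY10A (LOC_Os03g28940) and TIFY10B (LOC_Os07g42370) were higher by log2 0.86, 0.73 and 0.50 (adjusted p 0.001, 0.001 and 4.3e-04). None of these 5 genes overlapped between genotypes.

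Of 10 genes of jasmonate synthesis and response 3 were higher and 1 lower, with a median of 0.54. Leaving out 1 library at a time gave 2 to 5 higher, the 5 without raf-b2/3 control 2, and quantile normalization gave 6. AOS2 (LOC_Os03g12500), an allene oxide synthase gene of jasmonate synthesis, had 3.89, 4.35 and 3.10 FPKM in raf-b2/3 and 1.02, 0.936 and 1.46 FPKM in WT (log2 1.16, SE 0.13, adjusted p 1.4e-04). Its relative AOS1 (LOC_Os03g55800) was higher by 0.58 (adjusted p 0.005). The jasmonate receptor gene COI1A (LOC_Os01g63420) was lower by log2 -0.24 (adjusted p 0.022), and its call ended without raf-b2/3 mannitol 2, WT mannitol 1 or WT mannitol 2 (adjusted p 0.083 to 0.086) and with only the 6 mannitol libraries (0.052).

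Other stress regulators with a checked name were higher where they passed. Of 4 such stress NAC factors 2 were higher. NAC3 (LOC_Os07g12340) was higher by log2 0.79 (adjusted p 0.007) and NAC4 (LOC_Os01g60020) by 0.97 (adjusted p 0.023), while NAC6 (LOC_Os01g66120) was at 0.25 (adjusted p 0.104). The call of NAC4 ended without any 1 mannitol library except raf-b2/3 mannitol 3 (adjusted p 0.055 to 0.085) and with a pseudocount of 0.1 (0.051), and NAC6 passed with only the 6 mannitol libraries and under quantile normalization (0.031 and 0.049). Among 5 NAC entries tested by locus number, for want of a symbol, 1 was higher and 2 lower. LOC_Os11g03300 and LOC_Os12g03040 were lower by log2 -0.77 and -0.71 (adjusted p 0.017 and 0.019), and LOC_Os06g51070 was higher by 0.96 (adjusted p 0.017). Each of these calls ended without raf-b2/3 mannitol 2 or WT mannitol 1, and under some other settings. That of LOC_Os11g03300 also ended without raf-b2/3 mannitol 3 (log2 -0.68, adjusted p 0.057). Of 4 tested DREB and ERF factors with a checked name none passed, with log2 differences of -0.23 for DREB1A, -0.47 for DREB1C and 0.12 for DREB2B. Among 4 DREB and ERF entries tested by locus number 2 were higher and 0 lower. They were LOC_Os02g43790 (log2 0.78, adjusted p 0.003) and LOC_Os09g11480 (log2 0.95, adjusted p 3.4e-04). The stress markers SALT (log2 -0.23, adjusted p 0.354) and PBZ1 (log2 0.53, adjusted p 0.356) overlapped between genotypes. Among 7 stress marker entries tested by locus number 1 was higher and 2 lower.

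Of 20 heat shock protein and heat shock factor genes 4 were higher and 0 lower, and 6 were higher without raf-b2/3 mannitol 3. HSFA2D (LOC_Os03g06630), a heat shock factor gene, had 17.5, 13.4 and 10.8 FPKM in raf-b2/3 and 5.16, 6.90 and 6.13 FPKM in WT (log2 1.06, SE 0.18, adjusted p 0.002). HSFA4D (LOC_Os05g45410) and HSFA3 (LOC_Os02g32590) were higher by log2 1.0 and 0.61 (adjusted p 0.008 and 0.009). The small heat shock protein gene HSP17.4 (LOC_Os03g16020) was higher by 1.02 (adjusted p 0.023), and that call ended without raf-b2/3 mannitol 1 or 2 or WT mannitol 1 or 3 (adjusted p 0.063 to 0.096). Small heat shock genes have close copies between which reads could have been shared.

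Signalling kinases outside the ABA core differed at few members. Of 3 MAP kinase genes 1 was higher, MPK3 (LOC_Os03g17700), by log2 0.60 (adjusted p 0.017), while MPK1 and MKK6 were at 0.12 and 0.07 (adjusted p 0.224 and 0.476). The call of MPK3 ended without raf-b2/3 mannitol 2, WT mannitol 1 or WT mannitol 2 (0.061 to 0.071). Among 2 MAP kinase entries tested by locus number 1 was higher and 0 lower. Of 12 genes for CBL calcium sensors and the CIPK kinases they bind 2 were higher. CBL4 (LOC_Os05g45810) was higher by log2 0.70 (adjusted p 0.008). CIPK14 (LOC_Os12g02200) was at 0.46 (adjusted p 0.045), and at 0.28 (adjusted p 0.129) without raf-b2/3 mannitol 1. Its call also ended without any 1 WT mannitol library (0.085 to 0.134), raf-b2/3 control 3 (0.056), WT control 1 (0.057) or WT control 3 (0.058), with a pseudocount of 0.1 (0.051) and without the filter on low values (0.061). Its close copy CIPK15 (LOC_Os11g02240) was at 0.37 (adjusted p 0.16). The NADPH oxidase gene RBOHB was at 0.02 (adjusted p 0.926). Among 8 NADPH oxidase entries tested by locus number 1 was higher and 2 lower.

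**Figure D4:**
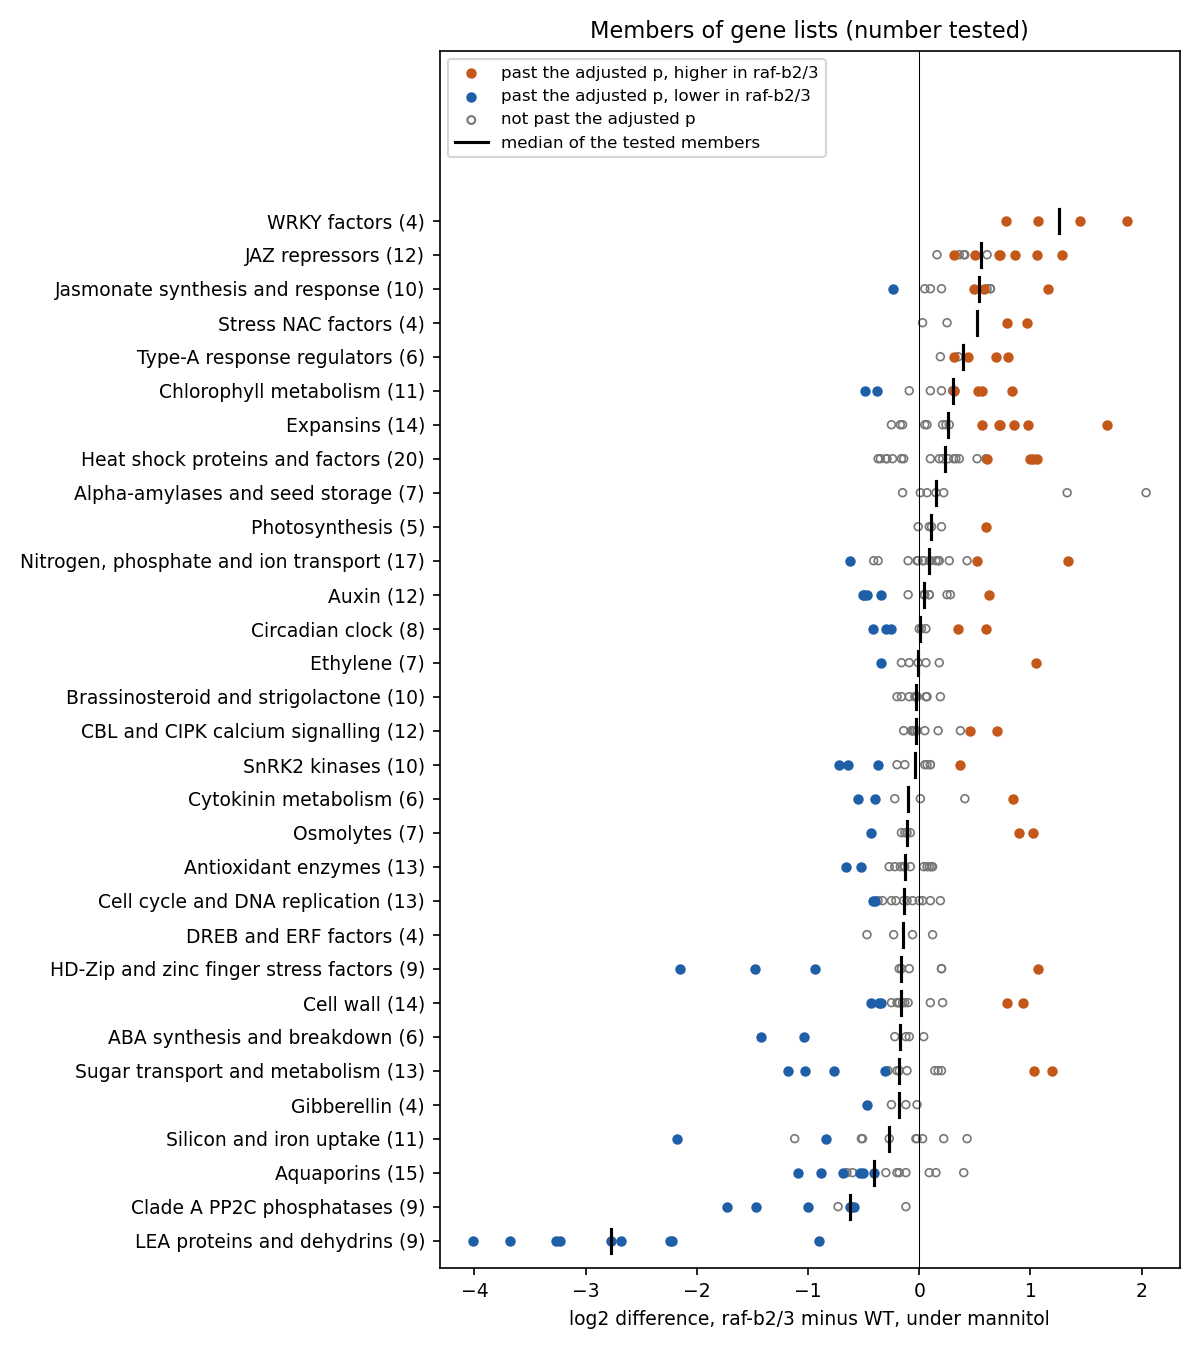
Log2 difference of raf-b2/3 minus WT under mannitol (horizontal) of the tested members with a checked name of each gene list with at least 4 of them, 1 circle per gene, filled where past the adjusted p and with a bar at the list median. LEA and dehydrin genes have the lowest median (-2.77) and the WRKY factors, of which 4 were tested, the highest (1.26).

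Expansins, which loosen the cell wall, were higher for 6 of 14 tested and lower for 0. EXPB11 (LOC_Os02g44108) had 65.7, 102 and 66.6 FPKM in raf-b2/3 and 21.1, 21.4 and 26.9 FPKM in WT (log2 1.69, SE 0.15, adjusted p 2.3e-05). Without mannitol its means were 25.2 FPKM in raf-b2/3 and 24.7 FPKM in WT, and the interaction passed (1.66, adjusted p 0.002). EXPA2 (LOC_Os01g60770) and EXPB3 (LOC_Os10g40720) were higher by log2 0.73 and 0.72 (adjusted p 2.7e-04 and 3.0e-04). In EXPB11 library 3 of raf-b2/3 lay beside library 1.

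Of 14 cell wall genes 2 were higher and 3 lower. The 2 higher belong to phenylpropanoid synthesis, which supplies lignin, PAL4 (LOC_Os02g41680) by log2 0.79 (adjusted p 2.4e-04) and 4CL5 (LOC_Os08g34790) by 0.93 (adjusted p 9.8e-04). CESA7 (LOC_Os10g32980), a cellulose synthase gene of secondary walls, had 23, 23.2 and 26.0 FPKM in raf-b2/3 and 30.8, 33.5 and 33.7 FPKM in WT (log2 -0.43, adjusted p 0.005). There were 8 lower members without raf-b2/3 mannitol 1.

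Aquaporins, the water channels of plant membranes, were lower for 6 of 15 tested and higher for 0 (median log2 -0.41). PIP1-2 (LOC_Os04g47220), of the plasma membrane, had 520, 553 and 601 FPKM in raf-b2/3 and 949, 870 and 886 FPKM in WT (log2 -0.69, SE 0.08, adjusted p 1.5e-04). PIP1-1 (LOC_Os02g44630) had 420, 388 and 463 FPKM in raf-b2/3 and 619, 600 and 614 FPKM in WT (log2 -0.53, SE 0.08, adjusted p 6.8e-04). PIP1-3 (LOC_Os02g57720) had 52.1, 66.3 and 70.6 FPKM in raf-b2/3 and 143, 137 and 124 FPKM in WT (log2 -1.09, SE 0.15, adjusted p 5.3e-04). In all 3 no raf-b2/3 value reached a WT value.

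Sugar genes went both ways, with 2 higher and 4 lower of 13. The sucrose exporter gene SWEET11 (LOC_Os08g42350) had 25.0, 24.3 and 26.8 FPKM in raf-b2/3 and 11.2, 12.6 and 11.9 FPKM in WT (log2 1.03, SE 0.18, adjusted p 0.002). SWEET13 (LOC_Os12g29220), of the same family, had 38.4, 40.6 and 43.4 FPKM in raf-b2/3 and 69.8, 71.3 and 70.2 FPKM in WT (log2 -0.77, SE 0.08, adjusted p 8.8e-05). These 2 relatives thus differed in opposite directions, with raf-b2/3 mannitol 3 among its group in both. The invertase gene CIN2 (LOC_Os04g33740) had 17.9, 11.1 and 10.4 FPKM in raf-b2/3 and 5.63, 4.29 and 5.30 FPKM in WT (log2 1.19, adjusted p 4.6e-04). The sucrose synthase gene SUS3 (LOC_Os07g42490) stood below the level of 1 FPKM in raf-b2/3, at 0.738, 0.775 and 0.540 FPKM, against 2.20, 3.88 and 2.52 FPKM in WT (log2 -1.18, adjusted p 4.0e-04), and the difference was -1.89 with a pseudocount of 0.1 and -2.04 by limma-voom. SUS3 passed the filter through WT libraries alone, and its adjusted p without the filter was 5.6e-04.

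Of 7 osmolyte genes with a checked name 2 were higher and 1 lower. Among 5 osmolyte entries tested by locus number 2 were higher and 2 lower. TPP1 (LOC_Os02g44230), a trehalose phosphate phosphatase gene, had 14.3, 13.2 and 9.75 FPKM in raf-b2/3 and 5.25, 5.46 and 5.88 FPKM in WT (log2 1.02, SE 0.17, adjusted p 0.002). TPP2 (LOC_Os10g40550) was higher by log2 0.90 (adjusted p 0.016), and its call ended without raf-b2/3 mannitol 1 or 2 or WT mannitol 1 or 2 (0.056 to 0.067). P5CS1 (LOC_Os05g38150), of proline synthesis, was lower by log2 -0.43 (adjusted p 0.003).

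Metal and ion transport genes included some large differences. Of 11 silicon and iron uptake genes 2 were lower. NRAMP1 (LOC_Os07g15460), a metal transporter gene, had 3.57, 13.0 and 9.60 FPKM in raf-b2/3 and 44.0, 50.6 and 25.9 FPKM in WT (log2 -2.18, SE 0.37, adjusted p 0.002). IRO3 (LOC_Os03g26210), a factor of the iron deficiency response, was lower by log2 -0.84 (adjusted p 0.006). The silicon channel gene LSI1 (LOC_Os02g51110) had 12, 15.9 and 19.7 FPKM in raf-b2/3 and 36.1, 35.6 and 33.7 FPKM in WT (log2 -1.12, SE 0.39, adjusted p 0.073). LSI1 passed without WT control 2 (adjusted p 2.0e-04) and with only the 6 mannitol libraries (0.001).

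Of 17 nitrogen, phosphate and ion transport genes 2 were higher and 1 lower. The potassium transporter gene HAK5 (LOC_Os01g70490) had 4.37, 3.75 and 2.54 FPKM in raf-b2/3 and 0.655, 0.733 and 0.950 FPKM in WT (log2 1.34, SE 0.18, adjusted p 4.4e-04), and the difference was 2.03 with a pseudocount of 0.1 and 2.16 by limma-voom. HAK5 passed the filter through raf-b2/3 libraries alone, and its adjusted p without the filter was 9.0e-04. The phosphate transporter gene PT1 (LOC_Os03g05620) was at 0.52 (adjusted p 0.021), a call that ended without raf-b2/3 mannitol 1 or 2 or WT mannitol 1 or 2 (0.063 to 0.085). The sodium transporter gene HKT2-1 (LOC_Os06g48810) was at -0.62 (adjusted p 0.045), and at -0.38 (adjusted p 0.154) without raf-b2/3 mannitol 2. Its call also ended without raf-b2/3 mannitol 3 (0.061), any 1 WT mannitol library (0.084 to 0.137), raf-b2/3 control 1 or raf-b2/3 control 3 (0.057 each), with a pseudocount of 0.1 (0.080), without the filter on low values (0.065) and with only the 6 mannitol libraries (0.051).

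Cytokinin genes differed at several members. Type-A response regulators, which cytokinin induces and which damp its signal, were higher for 4 of 6 tested and lower for 0 (median log2 0.39). There were 3 without raf-b2/3 mannitol 3, and without raf-b2/3 mannitol 2 or WT mannitol 1 there were 2. RR10 (LOC_Os12g04500) had 4.73, 4.44 and 6.07 FPKM in raf-b2/3 and 1.89, 2.75 and 2.84 FPKM in WT (log2 0.80, SE 0.15, adjusted p 0.003). RR9 (LOC_Os11g04720), its close copy, had 3.58, 3.82 and 3.98 FPKM in raf-b2/3 and 2.08, 2.05 and 1.77 FPKM in WT (log2 0.69, SE 0.10, adjusted p 6.8e-04). In both genes library 3 was the highest of raf-b2/3 and so the farthest from WT. RR4 (LOC_Os01g72330) was at 0.31 (adjusted p 0.026), a call that ended without raf-b2/3 mannitol 2, raf-b2/3 mannitol 3 or WT mannitol 1 (0.069 to 0.111) and with only the 6 mannitol libraries (0.059).

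Of 6 cytokinin metabolism genes 1 was higher and 2 lower. LOG (LOC_Os01g40630), whose enzyme releases active cytokinin, had 43.2, 42.8 and 42.4 FPKM in raf-b2/3 and 22.0, 22.8 and 25.8 FPKM in WT (log2 0.84, SE 0.07, adjusted p 2.3e-05), with group means of 55.4 FPKM in both genotypes without mannitol. Its relative LOGL1 (LOC_Os01g51210) was lower, with 14.2, 13.8 and 15.2 FPKM in raf-b2/3 and 22.7, 22.7 and 19.3 FPKM in WT (log2 -0.55, adjusted p 0.005). CKX11 (LOC_Os08g35860), of cytokinin breakdown, was at -0.40 (adjusted p 0.014), a call that ended without raf-b2/3 mannitol 2 (0.051) or WT mannitol 1 (0.067).

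Chlorophyll metabolism had 4 higher and 2 lower of 11 genes with a checked name (median log2 0.30). The 2 entries of this list tested by locus number were both lower (median log2 -0.43). HEMA1 (LOC_Os10g35840), the first committed enzyme gene of the pathway, had 155, 126 and 135 FPKM in raf-b2/3 and 68.2, 80.2 and 85.0 FPKM in WT (log2 0.83, SE 0.09, adjusted p 1.1e-04). CHLH (LOC_Os03g20700), a subunit of magnesium chelatase, had 285, 279 and 277 FPKM in raf-b2/3 and 178, 187 and 205 FPKM in WT (log2 0.56, SE 0.08, adjusted p 8.6e-04). PORB (LOC_Os10g35370), which makes chlorophyllide in the light, was higher by log2 0.53 (adjusted p 4.8e-04). All 3 passed the interaction, with differences of 0.16, -0.03 and -0.15 without mannitol. Of 5 photosynthesis genes with a checked name only RCA (LOC_Os11g47970), the Rubisco activase gene, passed (log2 0.60, adjusted p 0.019). The call of RCA ended without raf-b2/3 mannitol 1 or 2 or WT mannitol 1 or 2 (0.052 to 0.095) and without the filter on low values (0.087). Among 19 photosynthesis entries tested by locus number 4 were higher and 0 lower. The light harvesting genes LHCB1-CAB1R and LHCB2 were at 0.11 and 0.20 (adjusted p 0.569 and 0.272).

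Growth and timing lists had members past the adjusted p in both directions. Of 13 cell cycle and DNA replication genes 2 were lower, MCM6 (LOC_Os05g14590) by log2 -0.40 (adjusted p 0.011) and MCM2 (LOC_Os11g29380) by -0.42 (adjusted p 0.020), both subunits of the replicative helicase. The call of MCM2 ended without raf-b2/3 mannitol 2, raf-b2/3 mannitol 3 or WT mannitol 2 (0.056 to 0.087) and that of MCM6 without WT mannitol 2 (0.050). The related MCM5 (LOC_Os02g55410) was at -0.37 (adjusted p 0.058), and it passed without raf-b2/3 mannitol 1 (0.019) or WT mannitol 3 (0.037) and under 4 other settings. Without raf-b2/3 mannitol 1 the list had 4 members lower, without raf-b2/3 mannitol 2 or 3 it had 1, and without WT mannitol 2 it had 0.

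Of 12 auxin genes 1 was higher and 4 lower. IAA2 (LOC_Os01g09450), a repressor of auxin responses, was higher by log2 0.63 (adjusted p 6.8e-04), and its relatives IAA9 (LOC_Os02g56120) and IAA24 (LOC_Os07g08460) were at -0.51 and -0.47 (adjusted p 0.019 and 0.022). The call of IAA9 ended without raf-b2/3 mannitol 3, WT mannitol 1 or WT mannitol 2 (0.052 to 0.081) and with a pseudocount of 0.1 (0.074). That of IAA24 ended without raf-b2/3 mannitol 1, WT mannitol 1 or WT mannitol 2 (0.059 to 0.082). Without raf-b2/3 mannitol 1, WT mannitol 1 or WT mannitol 2 the list had 1, 2 and 0 members lower. Of 8 clock genes 2 were higher and 3 lower, among them ELF3 (LOC_Os06g05060) at 0.35 (adjusted p 0.011), PRR37 (LOC_Os07g49460) at -0.42 (adjusted p 0.009) and PRR73 (LOC_Os03g17570) at -0.30 (adjusted p 0.014). Without raf-b2/3 mannitol 2, raf-b2/3 mannitol 3, WT mannitol 1 or WT mannitol 3 the list had 1 member higher.

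Of 7 ethylene genes 1 was higher and 1 lower. ACS2 (LOC_Os04g48850), of ethylene synthesis, had 4.43, 4.61 and 2.93 FPKM in raf-b2/3 and 1.08, 1.57 and 1.54 FPKM in WT (log2 1.05, SE 0.18, adjusted p 0.002). The receptor gene ERS2 (LOC_Os05g06320) was at -0.34 (adjusted p 0.020), a call that ended without raf-b2/3 mannitol 2, raf-b2/3 mannitol 3, WT mannitol 2 or WT mannitol 3 (0.053 to 0.081), and the receptor gene ETR2 was at 0.18 (adjusted p 0.196). Of 4 gibberellin genes 1 was lower, the synthesis gene GA20OX2 (LOC_Os01g66100) at -0.47 (adjusted p 0.040). Its call ended without any 1 of the mannitol libraries except WT mannitol 2 (0.057 to 0.141) and without raf-b2/3 control 1 (0.053) or WT control 3 (0.052), with a pseudocount of 0.1 (0.078) and without the filter on low values (0.053). Of 10 brassinosteroid and strigolactone genes none passed, BRD1 standing at -0.20, D17 at 0.19 and D3 at -0.16.

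Of 13 antioxidant enzyme genes 2 were lower, both of them superoxide dismutases, SODCC2 (LOC_Os07g46990) at log2 -0.66 (adjusted p 0.012) and SODA (LOC_Os05g25850) at -0.52 (adjusted p 0.029). The call of SODCC2 ended without raf-b2/3 mannitol 2 (0.054), and that of SODA without raf-b2/3 mannitol 1 or 2 or WT mannitol 1 or 2 (0.061 to 0.118). The ascorbate peroxidase gene APX3 was at -0.27 (adjusted p 0.075), and passed without WT mannitol 3 (0.035) and under quantile normalization (0.040). Without raf-b2/3 mannitol 1, WT mannitol 1 or WT mannitol 2 the list had 1 member lower, and without raf-b2/3 mannitol 2 it had 0. Over the 37 lists 313 genes were tested, 55 higher and 60 lower at the adjusted p, and 6 lists had no member past it. These counts cover genes with a checked name. Of 125 further entries without a symbol in the reference 113 were tested by locus number, and 27 were higher and 24 lower. Among those not given above, 1 of 2 antioxidant, 1 of 1 jasmonate and 1 of 1 type-A regulator entries were higher. Lower were 2 of 4 nitrogen, phosphate and ion transport entries and 1 of 1 sugar entry. Of 3 ethylene entries 1 was higher and 1 lower.

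Genes expressed in particular organs were read beside these lists, because seedlings hold root, shoot and the rest of the grain. The FPKM of 6 root genes summed to 19.2, 23.6 and 25.0 in raf-b2/3 and to 41.5, 39.2 and 40.3 in WT, so the groups did not overlap. None of the 3 that could be tested passed. LSI1 made up most of the sum and carried the gap, with means of 15.9 FPKM in raf-b2/3 and 35.1 FPKM in WT. The means of LSI2, IRT1 and NRT2.2 were higher in raf-b2/3, at 3.13, 0.982 and 0.287 FPKM against 2.10, 0.687 and 0.0552 FPKM. Those of YSL15 and NRT2.3 were slightly lower, at 2.20 and 0.136 FPKM against 2.21 and 0.159 FPKM. Without mannitol the sums were 386 to 462 in raf-b2/3 and 75.9 to 367 in WT, the low value being WT control 2. The FPKM of 5 green shoot genes summed to 10851 to 12392 in raf-b2/3 and to 9606 to 11165 in WT, with overlap, and RCA was the member past the adjusted p. The FPKM of 4 grain genes summed to 36.1, 773 and 715 in raf-b2/3 and to 363, 205 and 199 in WT, and none of them passed.

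Of 7 alpha-amylase and seed storage genes none passed. AMY3B (LOC_Os09g28420), an alpha-amylase gene, had 0.0344, 59.3 and 45.9 FPKM in raf-b2/3 and 2.68, 0.628 and 6.08 FPKM in WT (log2 2.04, SE 1.71, adjusted p 0.469). AMY3E (LOC_Os08g36900) followed it, with 0.0289, 9.24 and 3.95 FPKM in raf-b2/3 and 0.173, 0.0971 and 1.57 FPKM in WT. For both genes raf-b2/3 mannitol 1 was the low library of its group, and the groups overlapped. The part of organ make-up in the differences of the other lists was not tested.

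The largest differences lay at loci without a name. LOC_Os01g35330 had 147, 174 and 114 FPKM in raf-b2/3 and 0.646, 0.478 and 0.618 FPKM in WT, a log2 difference of 6.51 (SE 0.13, adjusted p 4.6e-11). LOC_Os03g02470 had 23.4, 29.2 and 28.8 FPKM in raf-b2/3 and 0.096, 0.185 and 0 FPKM in WT, a log2 difference of 4.68 (SE 0.11, adjusted p 1.7e-10), which was 7.26 with a pseudocount of 0.1 and 8.99 by limma-voom. Both passed the filter through raf-b2/3 libraries alone and so had to differ to be tested, and without the filter their adjusted p were 6.9e-10 and 2.6e-09. They belong to the 9 loci at 3% or less of the raf-b2/3 level in WT without mannitol, and stood at 5.85 and 5.53 there. On the lower side LOC_Os01g74650, at the end of chromosome 1, was at -5.90 (SE 0.93, adjusted p 0.001), and at -7.50 without raf-b2/3 mannitol 3. LOC_Os11g26570 had 0.796, 0.734 and 10.4 FPKM in raf-b2/3 and 104, 114 and 75.3 FPKM in WT, a log2 difference of -4.89 (SE 0.65, adjusted p 3.7e-04), and of -5.79 without raf-b2/3 mannitol 3. In this last locus, numbered shortly before the RAB16 genes, library 3 again stood between the genotypes.

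Called loci were spread over all 12 chromosomes, from 1.8% of the tested loci on chromosome 2 to 3.34% on chromosome 4. In windows of 10 neighbouring tested loci, the most calls were 6, on chromosome 4 from LOC_Os04g09654 to LOC_Os04g10160. These 6 were all higher in raf-b2/3. The names of 5 of them were looked up after their values had been seen, so they are a description with no test. They are CPS4 (log2 1.12), CYP99A3 (1.05), MAS (1.28), KSL4 (1.28) and CYP99A2 (1.36), which are known as the gene cluster for momilactones, diterpenoids that rice makes as phytoalexins. The other was LOC_Os04g10000 (1.15).

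The momilactone genes varied among the raf-b2/3 libraries. KSL4 (LOC_Os04g10060) had 10.3, 14.9 and 5.53 FPKM in raf-b2/3 and 1.79, 3.94 and 4.94 FPKM in WT. CYP99A2 (LOC_Os04g10160) had 9.01, 11.9 and 5.94 FPKM in raf-b2/3 and 2.08, 2.78 and 3.53 FPKM in WT. Library 3 of raf-b2/3 was the lowest of its group and WT library 3 the highest of its own, so the groups came close without overlapping. The call of KSL4 ended without raf-b2/3 mannitol 1 or 2 or WT mannitol 1 or 2, and without raf-b2/3 mannitol 3 its log2 difference was 1.62. Without mannitol the log2 differences of these 5 genes were 0.12, 0.51, -0.12, 0.11 and 0.06. Windows with 5 calls lay at the end of chromosome 1, described above, and on chromosome 11 from LOC_Os11g26190 to LOC_Os11g26790, which holds the RAB16 genes. A further gene looked up after its value was seen, the actin-depolymerizing factor gene ADF3 (LOC_Os03g60580), had 41.5, 47.2 and 99.7 FPKM in raf-b2/3 and 523, 461 and 396 FPKM in WT (log2 -2.96).

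Differences under mannitol were then set beside those without it, which rest on 6 other libraries. Without mannitol 71 of the same loci were called higher in raf-b2/3 (0.333%) and 34 lower (0.16%), 0.493% in all. The 253 loci called higher under mannitol had a median log2 difference of 1.23 there and 0.40 without mannitol. The 251 called lower had a median of -1.42 under mannitol and -0.22 without it. These loci were chosen for their difference under mannitol, which by itself makes that side the larger. Over all tested loci, the interaction passed the adjusted p at 664 (3.12%), 229 higher and 435 lower.

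The interaction contains the difference by which the called loci were chosen, so its counts among them describe these loci and test nothing. Of the 251 lower loci 150 passed it, and all 150 were further from 0 under mannitol. Of the 253 higher loci 72 passed it, 68 of them further from 0 under mannitol. Of those called higher, 41 were also called higher without mannitol, which is 16.2% of the 253 and 57.7% of the 71. Of those called lower, 23 were also called lower without it, which is 9.16% of the 251 and 67.6% of the 34. No called locus passed the adjusted p in the opposite direction without mannitol, while 51 higher and 29 lower loci passed it in the same direction.

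**Figure D5:**
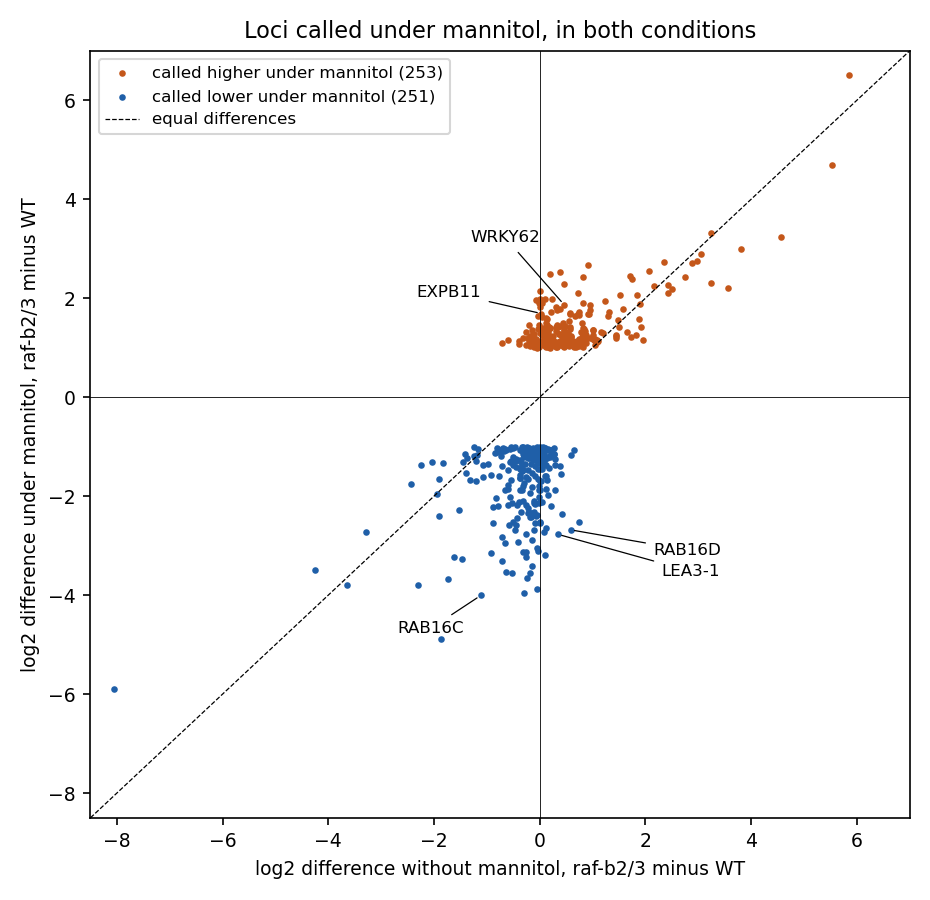
Log2 difference of raf-b2/3 minus WT under mannitol (vertical) against that without mannitol (horizontal), with 1 point per locus for the 253 loci called higher and the 251 called lower under mannitol. Most points lie near 0 on the horizontal axis, and none shown passed the adjusted p in opposite directions.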

How the data were processed

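The authors deposited 1 table with FPKM values for 12 libraries, together with mean and fold-change columns that were not used here. Per the labels' protocols, RNA of whole seedlings went through a strand-specific library kit. IRGSP-1.0 is the build, and DESeq2, edgeR and Trimmomatic are the tools, that appear in the submitters' processing notes, which give no versions. For the aligner, the annotation and any use of strand in counting, the entry is "not given in the sources used here", so reads of overlapping or antisense genes may not have been told apart.

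Loci with at least 1 FPKM in at least 3 of the 6 mannitol libraries were tested with limma-trend (limma 3.58.1, R 4.3.3) on log2(FPKM + 1). The fit took all 12 libraries with 4 group means (12.1 degrees of freedom) and Benjamini-Hochberg adjustment over all 21309 loci. A locus was called at an adjusted p under 0.05 and a log2 difference of at least 1 in size, and list members and the interaction were counted at the adjusted p alone. Log2 differences are on the log2(FPKM + 1) scale, which understates those of low genes. Whole fragments were recovered from the FPKM steps for all 29358 loci (tolerance 0.01 of a fragment) and served for depths and for limma-voom. In simulated data on 21309 loci, 98.5% of loci changed by log2 2 and 26.9% of those changed by 1 were called, and 95.5% of loci changed by 1 passed the adjusted p. Changed loci were drawn only from those with a mean well above the filter level under mannitol, so these rates do not cover low loci. Of the simulated calls 3.5% were false, and 9.5% at the adjusted p alone. The share of 9.5% was above the 0.05 that the adjusted p aims at, and the list counts rest on that rule. Far fewer loci were changed there than passed in the data, so these shares of false calls may not carry over to the data.

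The table gives locus numbers without names. Of 507 name entries, 363 had their symbol in the reference (assembly ASM3414082v1) on the same chromosome and within 500000 bases of the place that locus order gives. A further 132 had no symbol there and are given by locus number or counted apart, since their place in a list was not checked. The other 12 lay elsewhere and were not used. The files do not give reference coordinates, so none are printed. Members and lists were chosen with earlier results of these data known, and 17 of the names used were added after values were seen. Named with values were all LEA, clade A PP2C and Raf-like entries, the 15 named genes with the largest increase and the 15 with the largest decrease whose groups did not overlap, up to 3 members of each other list by adjusted p, the 5 genes past the adjusted p with the widest gap of raf-b2/3 mannitol 3, and the 2 highest and 2 lowest unnamed loci. No pairing by replicate number was seen: same-numbered raf-b2/3 and WT mannitol libraries had correlations of deviations of -0.073 to -0.003. Shared batches are not excluded by this.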

Additional observations from a re-analysis of the deposited data

Results flagged for a closer look

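The interaction, which tests whether the genotype difference under mannitol differs from that without mannitol, passed the limma adjusted p at 664 loci, among them 33 of the genes and loci named by rule. MAS (1.40), LOC_Os08g38990 (-1.28) and LOC_Os06g11240 (-1.50), which were looked up after values were seen, passed it as well. Of the LEA and dehydrin genes, the interaction was -3.27 for RAB16D, -3.11 for LEA3-1, -2.89 for RAB16C, -2.53 for LOC_Os01g12580, -2.02 for EMP1 and -2.0 for LOC_Os06g23350. LOC_Os06g23350 and SUS3 passed the filter on low values through WT libraries alone. Of the clade A PP2C genes it was -1.42 for PP2C51, -0.87 for PP2C08 and -0.45 for PP2C06. In these genes the difference of raf-b2/3 from WT was more negative under mannitol than without it. Without mannitol LOC_Os01g12580 and LOC_Os06g23350 had means under 1 FPKM in both genotypes, where little difference can show.

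Further genes with a negative interaction were SUS3 (-1.12), ABA8OX2 (-0.98), IAA9 (-0.92), SAPK3 (-0.83), SWEET13 (-0.82), LOGL1 (-0.80), HOX6 (-0.74), P5CS1 (-0.60), PIP1-2 (-0.59) and PIP1-1 (-0.58). The unnamed LOC_Os03g02470, a locus higher in raf-b2/3 in both conditions, was at -0.85. It passed the filter through raf-b2/3 libraries alone, with differences of 4.68 under mannitol and 5.53 without it. WT stood at no more than 0.185 FPKM in any library, so the interaction here follows the raf-b2/3 level alone. That level was 23.4 to 29.2 FPKM under mannitol and 40.7 to 51.8 FPKM without it.

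A positive interaction was found for EXPB11 (1.66), TIFY9 (1.39), HSFA2D (1.15), CIN2 (0.94), AOS2 (0.90), LOG (0.84), PAL4 (0.73), PORB (0.68), HEMA1 (0.67), IAA2 (0.65), EXPB3 (0.63), CHLH (0.59) and TIFY10B (0.39). The differences without mannitol of these 13 genes ranged from -0.15 for PORB to 0.26 for AOS2.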

How the results depend on the processing

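Counts of called loci were 417 higher and 328 lower with a pseudocount of 0.1, and 478 higher and 369 lower by limma-voom on recovered fragments. The interaction passed at 1194 loci with array weights and at 384 by limma-voom. Leaving out 1 library at a time gave 197 to 353 loci called higher, 225 to 283 called lower, 1106 to 2074 higher and 1053 to 1770 lower at the adjusted p alone, 77 to 117 called without mannitol, and 313 to 785 past the interaction. The interaction count fell to 387 without raf-b2/3 mannitol 2, 313 without WT mannitol 1, 377 without WT mannitol 2 and 409 without raf-b2/3 control 3. Without raf-b2/3 mannitol 3 and WT control 2, a setting chosen after seeing the data, 369 loci were called higher and 286 lower, 2164 were higher at the adjusted p alone and 837 passed the interaction. Of the 145 tested genes and loci named by rule or added later, 111 passed the adjusted p, 28 of these lost it under at least 1 of 23 alternatives, 83 kept it under all, and 0 reversed. With the replicate number as a block, 254 loci were called higher and 249 lower and 571 passed the interaction. Over all groups 3 of 18 same-numbered pairs had a correlation over 0.1 (-0.338 to 0.268), and pairs with other numbers ran from -0.277 to 0.344. No pairing by number was seen, but such correlations cannot exclude batches shared between groups. The block ended 5 calls, those of CIPK14, HKT2-1, LOC_Os03g06410, CYP71Z7 and CYP76M6. The call of CYP71Z7 also ended without raf-b2/3 mannitol 3. The share of the fitted difference in raf-b2/3 mannitol 3 was 0.69 over loci at the adjusted p alone. The planned description of promoter motifs was not run, because promoter sequences were not used here. With 3 libraries a group, smaller differences lie near the limit: 64.2% of loci changed by log2 0.5 passed the adjusted p in simulation. That rate does not cover low loci, which were not changed in the simulation. The causes of these changes were not tested.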
